A study of Ambystoma mexicanum with 12 samples.

Results

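Skin wounds of the axolotl, a salamander that heals its skin without a scar, were compared at 21 days post injury (21 dpi) with uninjured skin. The comparison used 3 arrays at 21 dpi and 3 arrays of uninjured skin, chosen by their sample titles, which are 6 of the 12 arrays of the series. The other 6 arrays came from wounds at 2 and 14 dpi. They share the estimate of spread in the fit and are used again at the end of this section, and all of the wound groups are set against the same uninjured arrays. Both groups came from adult white axolotls, with no transgene named for either. According to the methods the animals were 2-year-old males, 3 separate animals were used, and full-thickness biopsies of the body skin were taken with a punch of 2 mm. The labels carry a treatment text on the injection of ivermectin into the spinal cord, in which tissue of 10 small animals was pooled. It does not match the tissue and stage labels, so these sources leave unclear if each array was made from a single animal or from pooled tissue, and nothing in them ties the time points to particular animals. A p-value given here measures the spread between arrays. Arrays are numbered by the replicate number in their titles. Each array gave 1 log2 intensity per probe (that is, a probe set), summarised by the authors with robust multi-array average. A gene was represented by its brightest probe, and levels were compared only between arrays, never between genes. A biopsy holds epidermis, dermis, vessels, blood and at times the muscle below. In such a mixture, fewer cells of a type and less RNA per cell cannot be told apart.

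Amphibian skin consists of a layered epidermis, glands and a dermis of collagen with fibroblasts, pigment cells, vessels and nerves. After a full-thickness wound, keratinocytes migrate over the gap within hours to days, phagocytes clear the wound, and fibroblasts then fill it with a provisional matrix rich in fibronectin and tenascin. Fibrillar collagens are later laid down in this matrix. They are secreted as procollagens that are hydroxylated and folded in the endoplasmic reticulum (ER), trimmed outside the cell by specific proteases and crosslinked by lysyl oxidases. In axolotls the new dermis comes to resemble the old one, whereas mammals keep a scar.

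Pearson's r across probes, which are not independent replicates, was 0.980 to 0.994 within the 21 dpi arrays, 0.972 to 0.988 within the uninjured arrays and 0.959 to 0.969 between them. Array medians lay between 5.56 and 5.61 and lower quartiles between 4.06 and 4.11 in the 6 arrays. Values near the lower quartile are dim, and background was not separated from signal there. Uninjured arrays held the defining transcripts of skin: EPCAM, an adhesion molecule of epithelia, was 13.19, 12.97 and 13.29, the desmosomal protein DSP 11.97, 12.20 and 11.78, and the dermal matrix protein DPT 11.91, 11.66 and 12.08. Several defining markers have no probe with their symbol here, among them KRT5, KRT14 and KRT15 of basal keratinocytes, MPO of neutrophils, HBA1 and HBB of red cells, PMEL of pigment cells and SOX10 of Schwann cells. The melanocyte enzymes TYR and DCT were at 3.92 to 4.04 and 3.11 to 3.64 in uninjured skin, below the lower quartile. Skeletal muscle transcripts were present at varying levels. The mean of 63 sarcomere genes was 8.16, 7.13 and 7.66 at 21 dpi and 8.31, 8.24 and 6.41 in uninjured skin, where replicate 3 was the low array. The mean of 47 basal and suprabasal epidermal markers was 7.81, 8.23 and 8.02 at 21 dpi and 8.43, 8.36 and 8.48 in uninjured skin, so it was lower in all 3 wound arrays. This difference runs along the same groups as every result below on 21 dpi against uninjured skin. The marker mean was added to the fit of all 12 arrays as a covariate (the epidermal covariate). Of 166 called genes among those chosen for description, 119 kept their call with it.

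At 21 dpi, 6 of 8 fibrillar collagens, 14 of 24 collagen processing genes and 17 of 28 macrophage genes were higher than in uninjured skin. Lower were 29 of 57 genes of DNA replication, 36 of 75 of mitosis, 14 of 37 of ER folding and stress and 6 of 34 of sterol and fatty acid synthesis, where 2 were higher. With the mean of epidermal markers as a covariate, these lower counts were 5, 4, 8 and 1, and the higher counts of the lists of collagens, collagen processing and macrophages were 5, 11 and 10. Of 20035 probes, 2528 were called at an adjusted p under 0.05, which is 12.6%, with 1327 higher and 1201 lower. A change of at least 2-fold was seen in 892 of them, 469 higher and 423 lower. Among the 8639 genes with a symbol, 663 were higher (7.67%) and 627 lower (7.26%), and the median Log2-fold change over all of them was -0.01. In 3070 genes (35.5%) the 3 wound arrays did not overlap with the 3 uninjured arrays. The probes called include 547 higher and 462 lower that carry no symbol and are not described further. The count of 2528 fell to 1378 when uninjured array 2 was left out, to 1433 and 1151 when 21 dpi arrays 1 and 3 were, and to 959 with the epidermal covariate. Higher calls became 722, 781, 854 and 654 without uninjured array 2 and 21 dpi arrays 1, 2 and 3, and lower calls became 780, 656, 652 and 497 without uninjured arrays 1 and 2 and 21 dpi arrays 1 and 3. Probes called at 2-fold or more became 572 without 21 dpi array 3 and 474 with the epidermal covariate. Called on their brightest probe and not called on a dimmer one were COL7A1, PXDN, ITGB5, ITGAV, CALD1, POLA2, KIF23, ANLN, CALR, CYCS, LDHB, PFKP, SLC4A4, ABCA1, CSF1R, ADAR and CUBN, beside the genes for which dimmer probes are given.

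**Figure D1:**
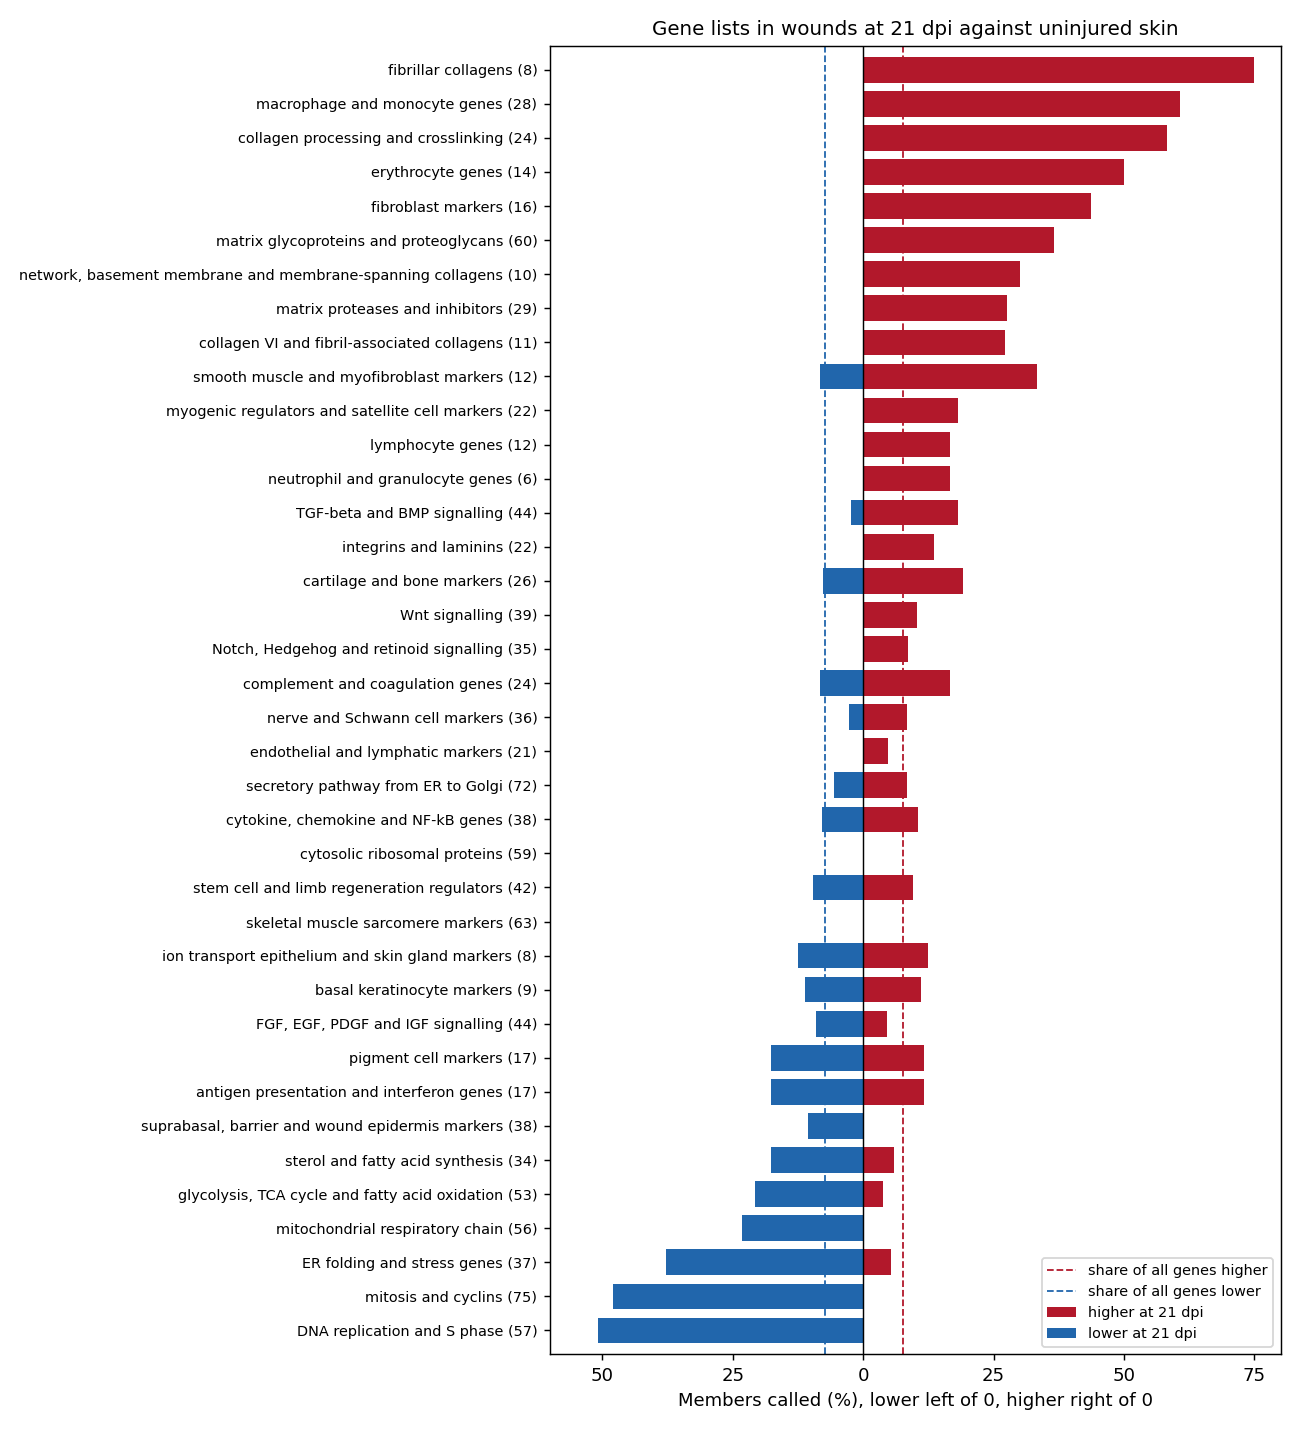
Share of the measured members of 38 gene lists called at 21 dpi against uninjured skin, with the number measured in brackets (bars to the right: higher, bars to the left: lower, in percent; adjusted p under 0.05 by limma). Dashed lines mark the shares over all genes, 7.67% higher and 7.26% lower. Fibrillar collagens, macrophage genes and collagen processing genes reach furthest to the right, and both cell cycle lists furthest to the left.

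Most fibrillar collagens were higher in wounds. Of 8 fibrillar collagens measured, 6 were higher and 0 lower by limma (0 lower at an unadjusted p under 0.05), with a median Log2-fold change of 2.48 beside -0.01 over all genes. COL11A1 encodes a chain of type XI collagen, which sits inside fibrils and limits their width. Its level was 9.71, 9.66 and 9.61 at 21 dpi, against 4.23, 4.57 and 3.85 in uninjured skin. The wound arrays agreed within 0.05 (SD), and the uninjured arrays lay at the dim end of the scale, so the size of the change depends on background. COL11A1 had the largest rise of the genes named by the rule used here, 5.45 on the log2 scale with a standard error of 0.25 (adjusted p = 4.08e-06), or 43.6-fold. A dimmer probe of the same gene rose by 1.42.

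Type I collagen is the bulk protein of dermal fibrils. COL1A2, its alpha 2 chain, was 13.04, 12.94 and 13.02 at 21 dpi and 10.34, 9.41 and 10.18 in uninjured skin, 8.13-fold higher, with a log2 standard error of 0.33 (adjusted p = 0.000671). COL1A1, the alpha 1 chain, was 13.59, 13.79 and 13.66 at 21 dpi and 11.18, 10.43 and 12.29 in uninjured skin, 5.19-fold higher (adjusted p = 0.0127). For both chains the wound arrays lay together, and the uninjured arrays were spread over more than a log2 unit for COL1A1. COL5A1 and COL5A2, the chains of type V collagen that starts fibril assembly, rose 6.91-fold and 6.01-fold (adjusted p = 0.000440 and 0.00139). COL3A1, a collagen of young and compliant tissue, rose 3.07-fold (adjusted p = 0.00745). The cartilage collagen COL2A1 was 5.47, 5.09 and 5.32 in wounds, which uninjured skin overlapped, a change of 0.10 (adjusted p = 0.714). Its dimmer probe had a Log2-fold change of 0.94 and was not called either (adjusted p = 0.0683 by limma). All 6 calls held in every fit that left out an array. With the epidermal covariate 5 held, and COL1A1 was no longer called on its brightest probe. Dimmer probes of COL1A1, COL3A1 and COL5A1 were called too. They rose by 3.60, 2.70 and 0.98 (adjusted p = 0.00199, 8.85e-05 and 0.0213 by limma).

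Collagens that bind to fibrils or form networks changed less evenly. Of 11 members of the collagen VI and fibril-associated group, 3 were higher and 0 lower by limma (0 lower at an unadjusted p under 0.05), with a median of 0.29. Type VI collagen forms beaded filaments around cells. COL6A3 was 12.18, 11.94 and 12.10 at 21 dpi and 10.40, 9.79 and 9.54 in uninjured skin (Log2-fold change 2.16, adjusted p = 0.0332), COL6A1 rose by 1.86 (adjusted p = 0.0186), and COL6A2 had a Log2-fold change of 1.91 that missed the threshold (adjusted p = 0.0578). COL12A1, which decorates type I fibrils, was 10.10, 10.01 and 9.90 in wounds and 9.46, 8.72 and 7.57 in uninjured skin, a change of 1.41 (adjusted p = 0.0470). None of the 4 genes overlapped between the groups on the brightest probe. They were 4 of 11 members, near the 35.5% of all genes without overlap in either direction. The calls on that probe depended on single arrays. The count of 3 was 0 without uninjured array 2, 21 dpi array 1 or 21 dpi array 3, and 0 with the epidermal covariate. Without uninjured array 3 or 21 dpi array 2 it was 1. COL6A3 lost its call without any 1 of the 6 arrays compared, and COL6A1 lost it when uninjured array 2 or 21 dpi array 1 or 3 was left out. COL12A1 lost it without uninjured array 2 or 3, array 1 or 3 of 2 or 14 dpi, or any 1 array of 21 dpi, and in the fit of only the 6 arrays. Dimmer probes of the same genes were called too. That of COL6A3 rose by 1.51 (adjusted p = 0.000351) and that of COL6A1 by 0.96 (adjusted p = 0.00175). Of the 4 dimmer probes of COL12A1, 3 rose, by 1.66, 0.84 and 0.62 (adjusted p = 0.0195, 0.0171 and 0.00499), and 1 gave 0.07. The other 7 members, types IX, XIV, XXI, XXII and COL6A6 among them, were not called and had Log2-fold changes of -0.14 to 0.38.

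Among 10 network, basement membrane and membrane-spanning collagens, 3 were higher and 0 lower by limma (0 lower at an unadjusted p under 0.05), and the median was 0.97. COL8A1, a short-chain collagen of vessel walls and remodelling tissue, was 6.23, 6.06 and 5.98 in wounds and 3.45, 3.70 and 3.49 in uninjured skin, a rise of 5.84-fold (adjusted p = 0.00280) from levels below the lower quartile. COL7A1, which forms the anchoring fibrils that tie the epidermis to the dermis, rose by 1.85 (adjusted p = 0.00541), and COL28A1 rose by 1.62 (adjusted p = 0.0102). The basement membrane chains COL4A1 and COL4A2 had Log2-fold changes of 1.11 and 1.13 and were not called (adjusted p = 0.206 and 0.183). COL17A1, a membrane collagen of basal keratinocytes, was 11.14, 11.95 and 11.62 in wounds and 11.20, 10.98 and 10.77 in uninjured skin, which overlap. The count of 3 was 5 with the sarcomere mean as a covariate (the muscle covariate).

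Of 24 genes that process and crosslink collagen, 14 were higher and 0 lower by limma (0 lower at an unadjusted p under 0.05), with a median of 0.97. LOXL2, which crosslinks collagen chains as a member of the lysyl oxidases, was 10.76, 10.57 and 10.63 in wounds and 8.13, 7.59 and 7.87 in uninjured skin, 6.91-fold higher, with a log2 standard error of 0.16 (adjusted p = 1.64e-05). SERPINH1, the chaperone of the procollagen triple helix, was 10.62, 10.71 and 10.65 in wounds and 9.16, 8.37 and 8.11 in uninjured skin, a rise of 4.32-fold (adjusted p = 0.00198). In each, every wound array was above every uninjured array by more than a log2 unit. The procollagen-trimming proteases TLL1 and BMP1 rose by 2.07 and 1.09, and PCOLCE2, an enhancer of such trimming, by 1.85, although the second probe of PCOLCE2 gave 0.31 (adjusted p = 0.679). The lysyl hydroxylases PLOD2 and PLOD1 rose by 2.10 and 0.85, the prolyl hydroxylase subunits P4HA2 and P4HA1 by 1.31 and 1.18, and CRTAP, a partner of prolyl modification, by 1.38. FKBP10, a folding enzyme for procollagen, rose by 1.68, SPARC, which binds collagen, by 1.99, and SEC23A, a coat protein of the vesicles that carry procollagen out of the ER, by 1.13 (adjusted p = 0.000224, 0.000351 and 0.00469). The 10 not called include the lysyl oxidases LOX and LOXL1 and the lysyl hydroxylase PLOD3, with Log2-fold changes of 0.20, 0.63 and -0.05. MIA3, ADAMTS2 and PPIB, also not called, had -0.18, 0.74 and 0.28. The count of 14 was 13 to 16 with any array left out and 11 with the epidermal covariate. PLOD1 and BMP1 were among those no longer called with that covariate.

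Non-collagen matrix proteins were higher in part. Of 60 matrix glycoproteins and proteoglycans, 22 were higher and 0 lower by limma (2 lower at an unadjusted p under 0.05), with a median of 0.73 and changes from -1.28 to 5.27. The count was 20 to 25 with any array left out and 17 with the epidermal covariate. CTHRC1, a secreted protein of activated fibroblasts, was 12.09, 12.16 and 12.09 in wounds and 6.74, 6.96 and 6.85 in uninjured skin. That is 38.5-fold higher, with a standard error of 0.11 on the log2 scale and an adjusted p = 2.87e-09. KAZALD1, a secreted protein with an IGF-binding domain, was 10.35, 10.92 and 10.69 in wounds and 5.98, 4.82 and 6.07 in uninjured skin, 32.6-fold higher (adjusted p = 5.83e-05). Tenascin-C (TNC), a large glycoprotein that loosens cell adhesion, was 12.34, 12.71 and 12.59 in wounds and 8.89, 8.70 and 7.32 in uninjured skin, 18.9-fold higher (adjusted p = 0.00113). Fibronectin (FN1), which cells bind through integrins, was 9.61, 9.51 and 9.53 in wounds and 5.94, 6.03 and 5.37 in uninjured skin, 13.7-fold higher (adjusted p = 0.000649). In all 4 the wound arrays were tighter than the uninjured ones or as tight, and no wound array came within 3 log2 units of an uninjured one. Other probes of TNC and FN1 were dim and gave 0.32 and 0.54.

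**Figure D2:**
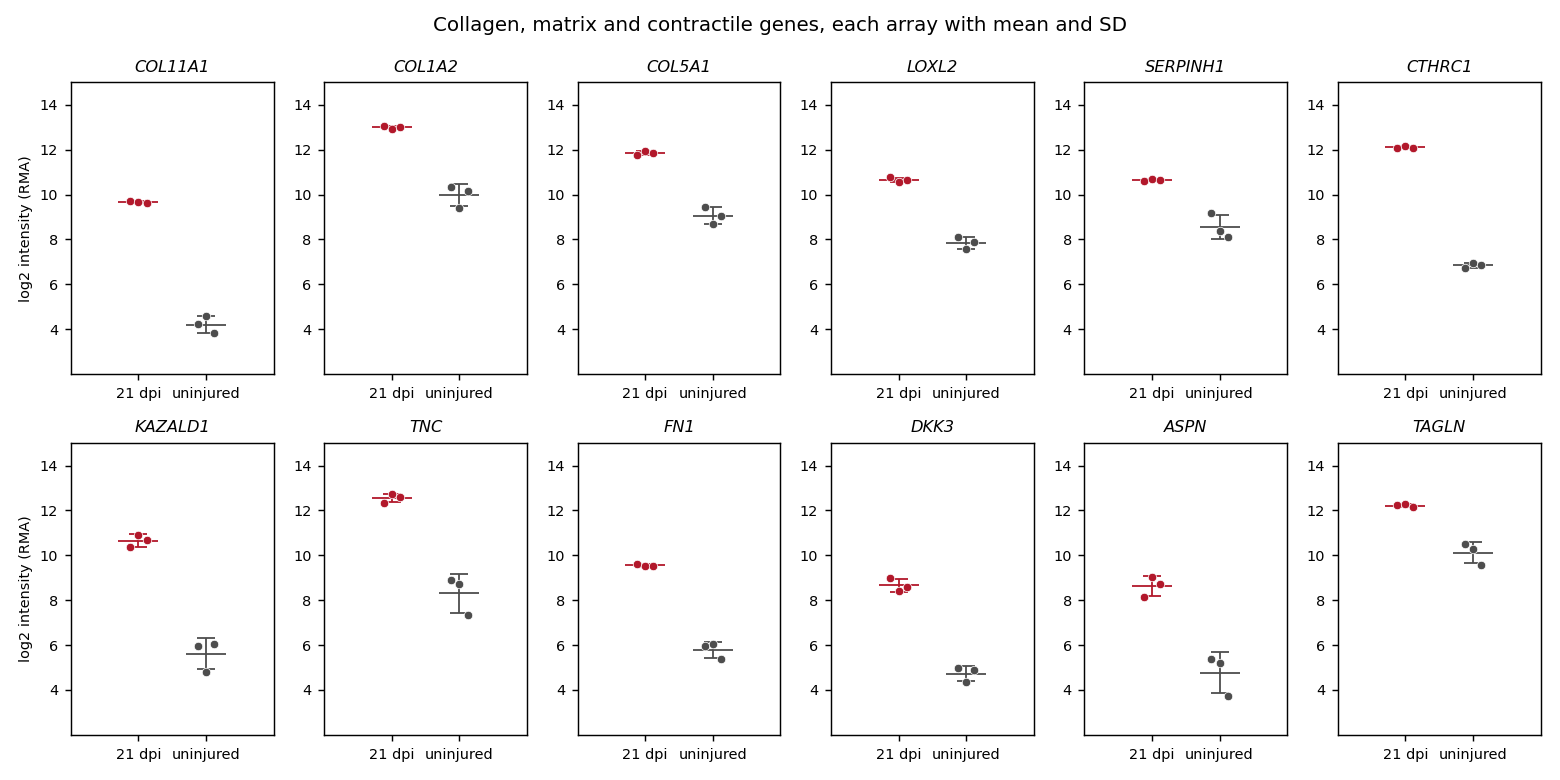
Log2 intensity of 12 collagen, matrix and contractile genes on each of the 3 arrays at 21 dpi (left, red) and the 3 uninjured arrays (right, grey), with the mean as a horizontal line and the SD as bars. In every panel all wound arrays lie above all uninjured arrays, from COL11A1 at 9.66 against 4.21 on average to TAGLN at 12.21 against 10.12.

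Proteins that tune fibrils and growth factors were part of the same group. ASPN, a small leucine-rich proteoglycan that binds collagen and TGF-beta, rose 14.6-fold (8.15, 9.05 and 8.71 in wounds, 5.39, 5.18 and 3.73 in uninjured skin, adjusted p = 0.000720). DKK3, a secreted glycoprotein related to Wnt inhibitors, rose 15.2-fold (adjusted p = 1.64e-05) on its brighter probe, while its dimmer probe gave 0.23 (adjusted p = 0.297). PXDN, a peroxidase that crosslinks basement membrane collagen, rose 12.6-fold, SPON2 22.2-fold and OLFML2B 7.61-fold (adjusted p = 0.00118, 0.00667 and 0.00122). SPON2 was uneven, and its call was lost with the epidermal covariate, at 12.16, 10.33 and 11.45 in wounds and 7.50, 7.40 and 5.61 in uninjured skin. The thrombospondins THBS2 and THBS3, which modulate cell-matrix contact, rose by 2.44 and 1.71, the basement membrane proteoglycan HSPG2 by 1.98, the collagen-binding protein TGFBI by 1.69, EMILIN1 of elastic fibres by 1.53, SRPX2 by 1.32 and the keratan sulfate proteoglycan KERA by 1.87. FBN2, a fibrillin of developing tissue, rose by 2.70 on its brightest probe, and its 4 other probes were not called. LUM and DPT, a proteoglycan and a matrix protein of resting dermis, were not called and had Log2-fold changes of 1.15 and 0.57 (adjusted p = 0.278 and 0.541), although their wound arrays lay above the uninjured ones. Both were called when only the 6 arrays compared were fitted.

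The rule that took the 15 largest rises also named VWDE, TMEM45A, MXRA5, PAMR1, CPZ and LAMA1. VWDE, a protein with a von Willebrand factor domain, was 11.24, 10.52 and 10.79 in wounds and 6.40, 6.36 and 5.24 in uninjured skin, 28.8-fold higher (adjusted p = 0.000129). TMEM45A, a membrane protein, was 9.40, 9.61 and 9.50 in wounds and 4.76, 4.46 and 5.80 in uninjured skin, 22.6-fold higher (adjusted p = 0.000131). MXRA5, a matrix-remodelling protein of fibroblasts, PAMR1 and the secreted carboxypeptidase CPZ rose 14.7-fold, 12.2-fold and 9.71-fold. LAMA1, a laminin chain of embryonic basement membranes, was 7.83, 6.90 and 6.98 in wounds and 4.12, 4.12 and 3.80 in uninjured skin, 9.36-fold higher (adjusted p = 0.000551). It was 1 of 3 integrins and laminins called higher of 22 (0 lower by limma, 1 lower at an unadjusted p under 0.05), beside 7.67% of all genes higher. The others were the integrin subunits ITGB5 (1.17) and ITGAV (0.86). The call of ITGAV was lost without any 1 of the uninjured arrays or without 21 dpi array 1 or 3. In these fits and with the epidermal covariate the count of 3 became 2. For LAMA1 and MXRA5 the uninjured arrays lay around the lower quartile, so their folds depend on background.

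Some matrix proteases and inhibitors were higher. Of 29, 8 were higher and 0 lower by limma (3 lower at an unadjusted p under 0.05), and the median was 0.15. MMP14, a membrane protease that cuts collagen, was 8.36, 7.90 and 7.94 in wounds and 6.58, 6.24 and 6.34 in uninjured skin, a rise of 3.21-fold (adjusted p = 0.000411). SERPINE2, a serpin of the matrix, rose by 1.35 and the lysosomal protease CTSB by 0.61 (adjusted p = 0.000746 and 0.00400). MMP9, a gelatinase of early wounds, was 5.36, 5.16 and 5.59 in wounds and 5.16, 5.70 and 5.58 in uninjured skin, which overlap. MMP2 was not called on its brighter probe (0.77, adjusted p = 0.488), where uninjured skin spread over 9.40, 7.57 and 6.41, but its second probe rose by 1.91 (adjusted p = 0.00745). The count of 8 was 5 without uninjured array 2, 4 without 21 dpi array 1 or 3, and 5 with the epidermal covariate.

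Some fibroblast markers were higher. Of 16, 7 were higher and 0 lower by limma (0 lower at an unadjusted p under 0.05), with a median of 0.43. The secreted glycoprotein FSTL1 was 12.68, 12.39 and 12.48 in wounds and 10.92, 10.70 and 10.41 in uninjured skin, 3.58-fold higher (adjusted p = 0.000326). Vimentin (VIM), the intermediate filament of mesenchymal cells, was 13.60, 13.68 and 13.61 in wounds and 13.11, 12.99 and 12.85 in uninjured skin, near the top of the scale, a rise of 1.57-fold (adjusted p = 0.00462). Its 2 dimmer probes rose by 2.00 and 1.60. CRABP1, a retinoic acid binding protein, rose by 2.10 and the transcription factor TCF4 by 1.02 (adjusted p = 0.00162 and 0.00258), while the second TCF4 probe gave 0.05 (adjusted p = 0.815). Other markers of the lineage were not called, with Log2-fold changes of -0.21 for the growth factor receptor PDGFRA, -0.02 for PDGFRB, -0.06 for the transcription factor PRRX1, 0.11 for the surface protein THY1 and -0.06 for the protease FAP.

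Contractile genes split. Of 12 smooth muscle and myofibroblast markers, 4 were higher and 1 was lower, with a median of 0.36. TAGLN, an actin-binding protein of smooth muscle and myofibroblasts, was 12.22, 12.27 and 12.14 in wounds and 10.49, 10.29 and 9.57 in uninjured skin, 4.28-fold higher (adjusted p = 0.00351). CALD1, which binds actin and myosin, rose by 1.12 and CSRP1 by 0.70. CNN1, a calponin of mature smooth muscle, went the other way, at 6.93, 7.68 and 7.19 in wounds and 9.67, 9.17 and 9.10 in uninjured skin, a Log2-fold change of -2.05 (adjusted p = 0.00341). MYH11, the smooth muscle myosin, had a Log2-fold change of -0.95 (adjusted p = 0.0853), with wound arrays below the uninjured arrays. It was called lower without 14 dpi array 2 and in the fit of only the 6 arrays. Its second probe fell by 0.91 (adjusted p = 0.0239), and the dimmest gave 0.13. ACTA2, smooth muscle actin, was 11.97, 12.52 and 12.34 in wounds and 12.30, 11.93 and 11.85 in uninjured skin, which overlap (0.25, adjusted p = 0.727). Of its 2 other probes 1 rose by 2.90 (adjusted p = 0.0495) and 1 had a Log2-fold change of 2.50 that was not called (adjusted p = 0.226), both far above that of the brightest. The 4 higher became 2 with the epidermal covariate, in which CALD1 was not called, and the 1 lower became 2 without 14 dpi array 2.

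Among the 38 lists, the cell cycle lists held the most genes that fell. Of 57 genes of DNA replication and S phase, 29 were lower and 0 higher by limma (0 higher at an unadjusted p under 0.05), with a median of -0.69. Of 75 genes of mitosis and cyclins, 36 were lower and 0 higher (1 higher at an unadjusted p under 0.05), with a median of -0.83. The means of the lists did not overlap between groups. For replication they were 7.23 to 7.32 in wounds and 7.92 to 8.01 in uninjured skin, and for mitosis 6.40 to 6.51 in wounds and 7.14 to 7.33 in uninjured skin. All wound arrays lay below all uninjured arrays in 40 of 57 replication genes and 56 of 75 mitosis genes, beside 35.5% of all genes without overlap in either direction.

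The replication genes that fell came from several steps. POLA2, a subunit of the polymerase that primes new strands, was 6.72, 6.82 and 6.83 in wounds and 8.12, 8.09 and 7.96 in uninjured skin, a Log2-fold change of -1.27 with a standard error of 0.12 (adjusted p = 0.000351). MCM7, part of the replicative helicase, was 8.73, 8.70 and 8.63 in wounds and 10.54, 10.43 and 10.08 in uninjured skin, a change of -1.66 (adjusted p = 0.00555). In both, the wound arrays lay more than a log2 unit below the uninjured arrays. CDC25A, the phosphatase that opens S phase, changed by -1.72, the flap nuclease FEN1 by -1.20, RPA2 of the single-strand binding complex by -1.12 and the thymidylate synthase TYMS by -0.96.

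The mitosis list had 36 genes lower and 39 not called. PLK1, a kinase of mitotic entry, was 7.05, 6.98 and 6.86 in wounds and 8.52, 8.82 and 8.61 in uninjured skin, a change of -1.69 with a standard error of 0.31 (adjusted p = 0.00725). CCNA2, cyclin A, was 7.10, 7.19 and 7.02 in wounds and 8.53, 8.83 and 8.63 in uninjured skin, a change of -1.56 (adjusted p = 0.00469). ANLN and KIF23 of cytokinesis changed by -1.95 and -1.72, the kinases MELK and AURKA by -1.67 and -1.44, the checkpoint protein MAD2L1 by -1.57, and the condensin subunit SMC2 by -1.10. CCND1, the cyclin of early G1, fell less, by 0.58 (adjusted p = 0.0118). The cyclins CCNB3, CCND2 and CCNF and the kinases BUB1B, TTK and PLK4 had Log2-fold changes of -0.90, -0.62, -0.11, -0.77, -0.60 and -0.71 and were not called. The count for replication was 18, 16, 19, 19 and 10 without uninjured arrays 1 and 2 and 21 dpi arrays 1, 2 and 3. For mitosis it was 20 without uninjured array 2 and 18 without 21 dpi array 3. The epidermal marker mean is itself lower in all wound arrays at 21 dpi. With this mean as a covariate, 5 replication genes and 4 mitosis genes were called lower. PLK1, MCM7, ANLN, MAD2L1, AURKA, TYMS and CCND1 were then no longer called. The fall of these genes and the lower level of epidermal markers cannot be told apart in these arrays.

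**Figure D3:**
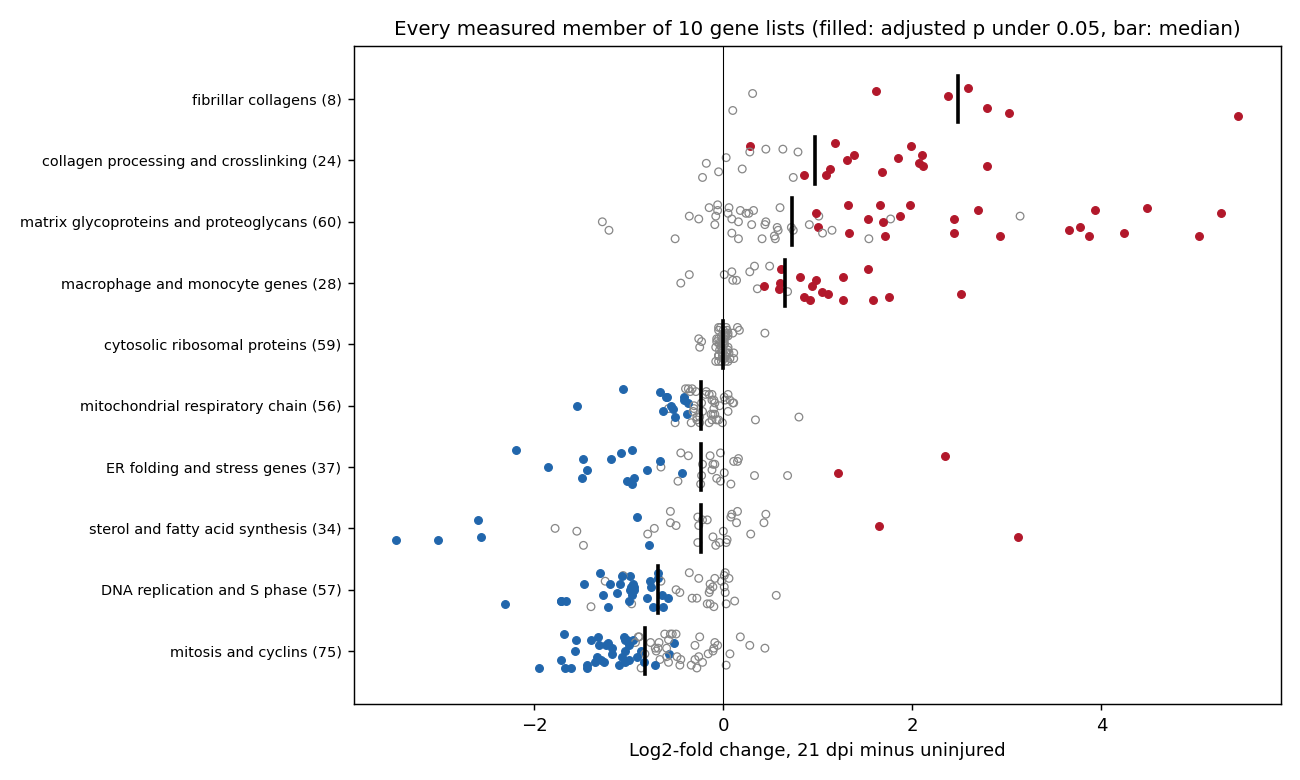
Log2-fold change at 21 dpi against uninjured skin (x axis) of every measured member of 10 gene lists (rows, number measured in brackets). Filled points passed an adjusted p under 0.05, open points did not, and the black bar is the list's median, from 2.48 for fibrillar collagens through 0.00 for ribosomal proteins to -0.83 for mitosis and cyclins. Vertical scatter within a row has no meaning.

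Of 37 genes of ER folding and stress, 14 were lower, 2 higher and 21 not called, with a median of -0.24. HSPA5, the chaperone BiP, was 8.36, 8.71 and 8.24 in wounds and 11.38, 10.50 and 9.99 in uninjured skin, a change of -2.19 with a standard error of 0.30 (adjusted p = 0.00205). No wound array overlapped with uninjured skin, in which replicate 1 was the highest. CRELD2, an ER stress protein, averaged 7.91 ± 0.12 in wounds and 9.41 ± 0.15 in uninjured skin (SD, n = 3 each), a change of -1.50 (adjusted p = 0.00104 by limma). SDF2L1, DNAJB9 and DNAJB11, co-factors of BiP, changed by -1.49, -1.44 and -1.08, the lectin chaperone CALR by -1.02, the ER factor MANF by -0.97 and the disulfide isomerase PDIA6 by -0.95. HYOU1, a further ER chaperone, changed by -1.85 (adjusted p = 0.0163), a call lost without uninjured array 1 or 2 or 21 dpi array 1 or 3. The lectin chaperone CANX and the disulfide isomerases PDIA3 and P4HB, the last also a subunit of prolyl hydroxylase, had Log2-fold changes of 0.15, -0.48 and -0.22 and were not called. The 2 that were higher are FKBP7 and FKBP9, ER prolyl isomerases, by 2.35 and 1.21. FKBP7 was 11.60, 11.34 and 11.49 in wounds and 9.16, 8.96 and 9.26 in uninjured skin. The 14 became 9 without 21 dpi array 1 and 8 with the epidermal covariate, in which HYOU1 and SDF2L1 were not called.

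The wider secretory pathway from ER to Golgi showed 6 higher and 4 lower of 72 genes, near the shares over all genes, with a median of -0.02. USO1, a tether of ER-derived vesicles, rose by 0.58 and SRP54 of the signal recognition particle fell by 0.46. The 6 became 3 without uninjured array 1 or 21 dpi array 1 or with the epidermal covariate, and 2 without uninjured array 2 or 21 dpi array 2 or 3. The 4 became 1 without 21 dpi array 1 or 3 and with that covariate.

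Of 34 genes of sterol and fatty acid synthesis, 6 were lower, 2 higher and 26 not called, with a median of -0.24. SQLE, squalene epoxidase, was 6.79, 5.70 and 6.10 in wounds and 9.81, 8.91 and 10.25 in uninjured skin, a change of -3.46 with a standard error of 0.66 (adjusted p = 0.00861). HMGCS1, which makes the precursor of mevalonate, was 6.62, 6.65 and 6.69 in wounds and 9.66, 8.98 and 8.98 in uninjured skin, a change of -2.56 (adjusted p = 0.00815). CYP51A1, the lanosterol demethylase, changed by -3.02 (adjusted p = 0.00718), a second probe by -2.36, while its dimmest gave 0.03. All 3 were more than 2 log2 units lower in every wound array than in any uninjured array. FDPS, farnesyl diphosphate synthase, changed by -2.60 on its brighter and -2.68 on its dimmer probe (adjusted p = 0.0165 and 0.0175), a call lost without uninjured array 1 or 21 dpi array 1 or 3. The 2 higher were FABP3, a fatty acid binding protein (1.65, adjusted p = 0.0165), and DGAT2, which makes triglycerides (3.12, adjusted p = 0.0319). DGAT2 was uneven, at 9.25, 5.12 and 7.98 in wounds and 4.15, 4.24 and 4.62 in uninjured skin, and its call was lost without any 1 uninjured array or without 21 dpi array 1 or 3. FABP3 lost its call without 21 dpi array 1 or 3. The 6 lower became 3 without 21 dpi array 3, 10 without 14 dpi array 2 and 1 with the epidermal covariate, in which SQLE, HMGCS1 and FDPS were not called, and the 2 higher became 0 by limma with it (4 higher at an unadjusted p under 0.05 without it).

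Some genes of energy metabolism were lower, and no ribosomal protein was called. Of 56 genes of the mitochondrial respiratory chain, 13 were lower and 0 higher by limma (0 higher at an unadjusted p under 0.05), with a median of -0.24. CYCS, cytochrome c, was 10.00, 10.01 and 9.93 in wounds and 11.62, 11.54 and 11.43 in uninjured skin, a change of -1.55 (adjusted p = 0.000671), and CYC1 of complex III changed by -1.06 (adjusted p = 0.00192). Subunits of complex I changed by less, NDUFA7 by -0.67, NDUFB5 by -0.61 and NDUFV1 by -0.60. Of 53 genes of glycolysis, the TCA cycle and fatty acid oxidation, 11 were lower and 2 higher, with a median of -0.16. The lactate dehydrogenase LDHB changed by -0.89, the phosphofructokinase PFKP by -0.63, and the TCA enzymes IDH3A and SUCLA2 by -0.63 and -0.61. Of 59 cytosolic ribosomal proteins, 0 were higher and 0 lower by limma (0 and 0 at an unadjusted p under 0.05), with a median of 0.00 and changes between -0.26 and 0.44. The 13 became 6 without uninjured array 2, 8 without any 1 array of 21 dpi and 7 with the epidermal covariate. The 11 became 7, 5, 6, 7 and 4 without uninjured arrays 1 and 2 and 21 dpi arrays 1, 2 and 3, and 1 with that covariate, in which PFKP, IDH3A, SUCLA2 and NDUFV1 were not called. The 2 higher of that list were 1 without uninjured array 1 or 2 or 21 dpi array 1 or 2, and 0 without 21 dpi array 3.

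**Figure D4:**
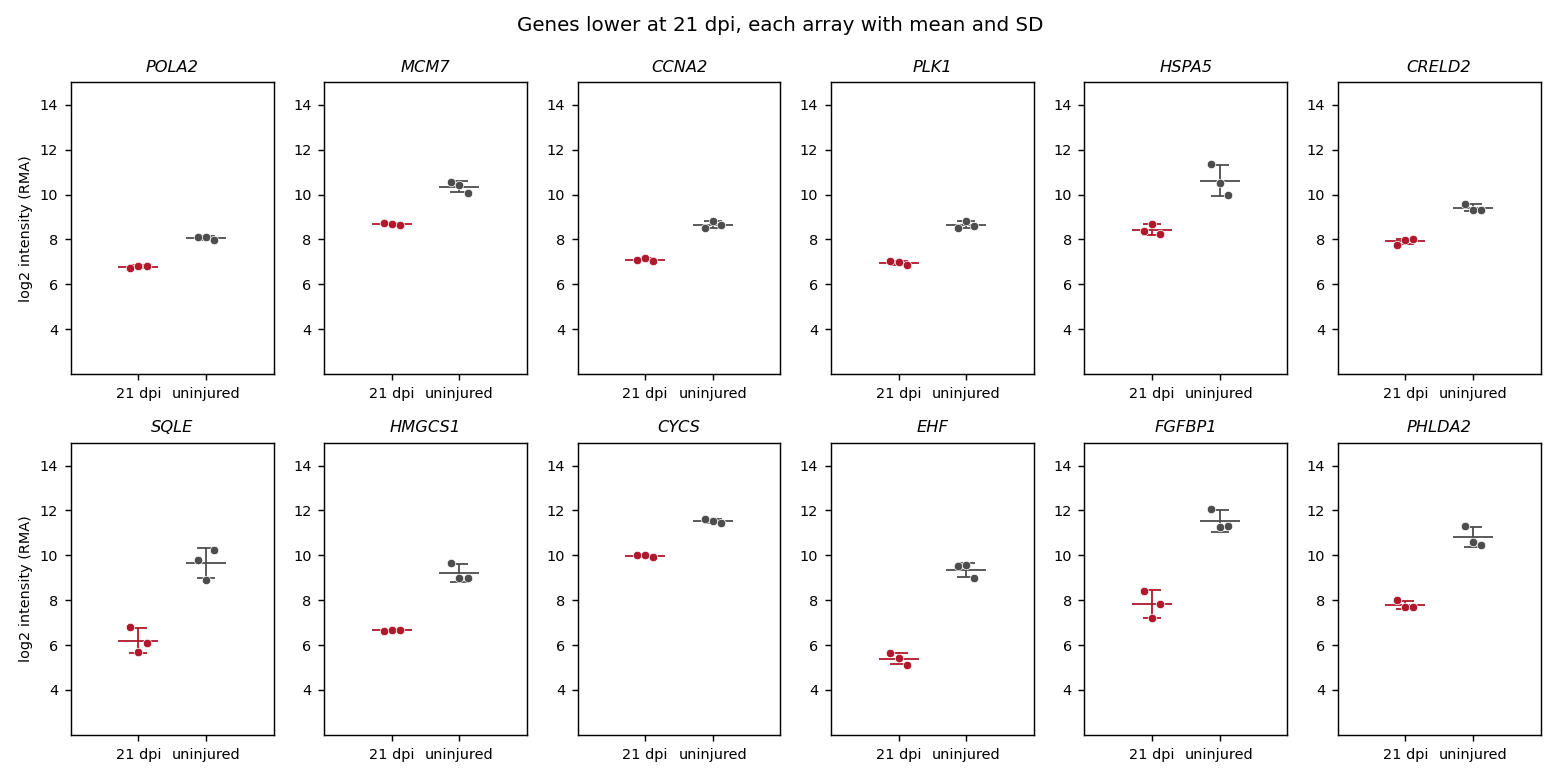
Log2 intensity of 12 genes of the cell cycle, ER folding, sterol synthesis, respiration and epithelium on each of the 3 arrays at 21 dpi (left, red) and the 3 uninjured arrays (right, grey), with the mean as a horizontal line and the SD as bars. In every panel all wound arrays lie below all uninjured arrays, with EHF at 5.40 against 9.36 on average and CYCS at 9.98 against 11.53.

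Few epidermal genes were called, beside 7.67% of all genes higher and 7.26% lower. Of 38 suprabasal, barrier and wound epidermis markers, 4 were lower and 0 higher by limma (2 were higher and 12 lower before adjustment, at p under 0.05), with a median of -0.34. The 4 are near the share of all genes that were lower. EHF, an epithelial transcription factor, was 5.64, 5.44 and 5.12 in wounds and 9.51, 9.57 and 9.01 in uninjured skin, a change of -3.96 (adjusted p = 0.000671) and the largest fall under the naming rule. FGFBP1, which carries fibroblast growth factors, was 8.43, 7.20 and 7.85 in wounds and 12.07, 11.24 and 11.29 in uninjured skin, a change of -3.71 (adjusted p = 0.00169). Both genes were more than 2 log2 units below uninjured skin in every wound array, and both calls held with the epidermal covariate. Members of the basal and suprabasal lists, these genes included, make up the mean behind that covariate. Calls kept, lost or gained with it are therefore no independent test of these lists. The 4 became 2 without uninjured array 1, 21 dpi array 1 or 3, or with that covariate, and 9 without 14 dpi array 2, and with that covariate 2 were higher. EPCAM, DSP and the adherens junction protein CDH1 had Log2-fold changes of -0.21, 0.42 and -0.61 (adjusted p = 0.342, 0.187 and 0.113), and 1 dimmer probe of CDH1 rose by 0.90. Among 9 basal keratinocyte markers, DST, a linker of keratin to hemidesmosomes, rose by 1.70 on its brightest probe (adjusted p = 0.00676). Of its 4 other probes 3 were not called. At 2 dpi its brightest probe was at -2.05 against uninjured skin (adjusted p = 0.00307 by limma). The epidermal marker mean was then 8.57 to 8.81, above 8.36 to 8.48 in uninjured skin. Which cells gave the DST signal was not tested. The growth factor receptor EGFR changed by -0.80 (adjusted p = 0.00991). The brightest probes of DST and EGFR did not keep their calls with the epidermal covariate. TP63, a transcription factor of basal keratinocytes, was 6.12, 6.86 and 6.69 in wounds and 6.69, 6.78 and 7.19 in uninjured skin, which overlap (adjusted p = 0.604). Of 8 genes of ion-transporting epithelium, the sodium channel subunit SCNN1B rose by 1.78 (7.74, 8.95 and 8.38 in wounds, 6.12, 6.66 and 6.94 in uninjured skin), and the bicarbonate transporter SLC4A4 changed by -1.29, a call lost with that covariate. Without uninjured array 3, 2 of the 8 were higher and 2 lower, and without 14 dpi array 2, 2 were higher.

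Other large falls under the naming rule came from several pathways. PHLDA2, a lipid-binding growth regulator, was 8.01, 7.68 and 7.71 in wounds and 11.31, 10.61 and 10.47 in uninjured skin, a change of -3.00 (adjusted p = 0.00215). TREX2, an exonuclease of keratinocytes, changed by -2.38, the amino acid transporter SLC7A3 by -2.25, the G protein subunit GNG13 by -2.25, and COQ10B of coenzyme Q handling by -2.31. MAT2A, which makes S-adenosylmethionine, was 7.48, 7.46 and 7.51 in wounds and 10.24, 9.62 and 8.76 in uninjured skin, a change of -2.06 (adjusted p = 0.00786). The wound arrays agreed within 0.03 (SD), and the uninjured arrays spread over more than a log2 unit. Of its 2 other probes 1 changed by -2.33 and 1 gave 0.13. GFPT2 of hexosamine synthesis changed by -2.06 and the RNA-degrading enzyme PNPT1 by -2.01. The second probe of COQ10B gave 0.10 and that of TREX2 -0.93 (adjusted p = 0.838 and 0.258), whereas that of GFPT2 changed by -2.49.

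Most macrophage genes were higher. In the macrophage and monocyte list of 28, limma called 17 higher and 0 lower (1 lower before adjustment, at p under 0.05), the median change was 0.65, and the list's mean was 9.39 to 9.50 in wounds and 8.68 to 8.76 in uninjured skin. GPNMB, a glycoprotein of lipid-laden macrophages and of pigment cells, was 12.33, 12.20 and 12.19 in wounds and 10.76, 10.53 and 10.16 in uninjured skin, 3.37-fold higher (adjusted p = 0.000618). HMOX1, which breaks down haem, was 10.50, 10.67 and 10.65 in wounds and 9.04, 7.87 and 7.34 in uninjured skin, 5.75-fold higher (adjusted p = 0.00666). In each the wound arrays were nearly level, and the uninjured arrays spread more for HMOX1. The lysosomal proteases LGMN, CTSD and CTSZ rose by 1.04, 0.94 and 1.27, the cholesterol exporter ABCA1 by 1.58, the complement chain C1QC by 1.11 and GRN by 0.81. The receptor CSF1R rose by 0.59 and the scavenger receptor MARCO by 1.53 (adjusted p = 0.0229 and 0.0240), with CSF1R lost without uninjured array 2 or 3 or 21 dpi array 2 or 3, and MARCO without uninjured array 1 or 2 or 21 dpi array 1 or 3. The 17 became 11 without uninjured array 2 or 21 dpi array 3 and 10 with the epidermal covariate, in which CSF1R, MARCO and GRN were not called. The 11 not called include SPI1, IRF8, CD68, CD74, LYZ and CTSS. Their Log2-fold changes were 0.14, -0.36, 0.68, 0.28, 0.36 and -0.45. Many genes of this list are lysosomal and are used by other cells as well.

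Other immune groups gave small counts of calls, beside 7.67% of all genes higher and 7.26% lower. CYBB, the phagocyte oxidase subunit, was the neutrophil and granulocyte gene called of 6 measured, at 8.97, 8.29 and 8.52 in wounds and 7.18, 7.29 and 7.05 in uninjured skin (1.42, adjusted p = 0.00472). Of 12 lymphocyte genes, the chemokine receptor CXCR4 and the leukocyte plastin LCP1 were higher, by 1.94 and 0.91, and both are also used by myeloid cells. CXCR4 was 8.25, 8.23 and 8.28 in wounds and 6.51, 6.65 and 5.79 in uninjured skin. Of 17 antigen presentation and interferon genes 2 were higher and 3 lower, ADAR, an RNA-editing enzyme, by -1.09. Of 24 complement and coagulation genes 4 were higher and 2 lower, among them TFPI, an inhibitor of the clotting pathway (1.25), and tissue factor, F3 (-1.46). F13B rose by 2.05 on its brightest probe only. Of 38 cytokine, chemokine and NF-kB genes 4 were higher and 3 lower, close to the shares over all genes, with NFKBIE, an inhibitor of NF-kB, at 1.14 and the cytokine suppressor SOCS1 at -1.35. These small counts moved when single arrays were left out. Neutrophil genes were 2 without 2 dpi array 1 or 2, and lymphocyte genes 4 without 14 dpi array 1. Higher antigen presentation genes were 0 without uninjured array 2 or 21 dpi array 2 or 3, and 1 without uninjured array 1 or 3 or 21 dpi array 1. Higher complement genes were 2 without 21 dpi array 1 or 3, and lower ones 1 without uninjured array 2 or any 1 array of 21 dpi. Higher cytokine genes were 1 without uninjured array 2 or 21 dpi array 1 or 3 and 2 without 21 dpi array 2, and lower ones 1 without uninjured array 1 or 21 dpi array 2 or 3. With the epidermal covariate 1 cytokine gene, 2 complement genes and 1 lymphocyte gene were higher, 0 antigen presentation genes were higher and 0 complement genes lower by limma (3 and 3 at an unadjusted p under 0.05 without it), and F3 and LCP1 were not called.

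Calls of red cell genes depended on single arrays. Of 14, 7 were higher and 0 lower by limma (0 lower at an unadjusted p under 0.05), with a median of 0.70. ALAS2, the first enzyme of haem synthesis in erythroid cells, was 9.36, 11.07 and 10.70 in wounds and 8.69, 8.14 and 6.51 in uninjured skin (2.60, adjusted p = 0.0332). The transcription factor NFE2 rose by 2.53, and UROD and BLVRB of haem handling by 1.02 and 0.79. The 7 not called were RHAG, SPTB, EPB41, CPOX, SLC4A1, TFRC and ALAD. Their Log2-fold changes were 1.60, 0.90, 0.62, 0.12, 0.06, -0.11 and -0.38. Among wound arrays, replicate 1 was the lowest for ALAS2, NFE2, UROD and BLVRB. The 7 higher became 0 without uninjured array 2, 4 without uninjured array 3, 1 without 21 dpi array 2 or 3 and 0 with the epidermal covariate. ALAS2 lost its call without uninjured array 2 or 3 or 21 dpi array 2 or 3, NFE2 and BLVRB without uninjured array 2 or 21 dpi array 2 or 3, and UROD without uninjured array 2 or 21 dpi array 3. Haemoglobins have no probe with the symbols HBA1 or HBB here, so the part that blood in the biopsy plays in other results was not tested.

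Vessel, nerve, pigment and cartilage markers gave small counts of calls, beside 7.67% of all genes higher and 7.26% lower. Of 21 endothelial and lymphatic markers, 1 was higher, the blood and vessel transcription factor TAL1 (1.20, adjusted p = 0.0437), which also marks erythroid cells, and 0 were lower by limma (0 lower at an unadjusted p under 0.05). Its call was lost with the epidermal covariate and without uninjured array 1, 2 or 3, 2 dpi array 1 or 3, 14 dpi array 1, or 21 dpi array 2 or 3, and 1 endothelial gene was lower without uninjured array 3. Of 36 nerve and Schwann cell markers, 3 were higher and 1 lower. The lower one was MAL, a lipid raft protein of myelin and also of epithelia, at 8.65, 8.90 and 8.75 in wounds and 10.27, 11.02 and 10.96 in uninjured skin, a change of -1.99 (adjusted p = 0.00118). The 3 higher became 1 without any 1 uninjured array and 0 without 21 dpi array 1 or 3 and with the epidermal covariate, and the 1 lower became 2 without uninjured array 3 and with that covariate. Of 17 pigment cell markers, 2 were higher, GPNMB and CSF1R, which macrophages share, and 3 lower. The cystine transporter SLC7A11 was 4.85, 4.07 and 4.67 in wounds and 6.10, 6.71 and 6.04 in uninjured skin (-1.76, adjusted p = 0.00168). KIT, a receptor of melanoblasts and mast cells, was 6.99, 6.33 and 6.47 in wounds and 8.65, 8.13 and 8.40 in uninjured skin (-1.80, adjusted p = 0.0153), a call lost without uninjured array 1 or 21 dpi array 2 or 3. The 3 lower became 1 without 21 dpi array 3, and the 2 higher became 1 without uninjured array 2 or 21 dpi array 2 or 3 and with the epidermal covariate. Of 26 cartilage and bone markers, 5 were higher and 2 lower. COL11A1 and SPARC were among the higher, both of which other connective tissue uses, and COL2A1 was not called. The 5 became 2 without uninjured array 2 or 21 dpi array 3, and 3 without uninjured array 1 or 3 or 21 dpi array 1. The 2 lower became 1 without any 1 array of uninjured skin or 2 dpi, without 14 dpi array 1, without 21 dpi array 1 or 2, and with the epidermal covariate.

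No sarcomere gene was called. Of 63, 0 were higher and 0 lower by limma (1 was higher and 0 lower before adjustment, at p under 0.05), with a median of -0.06, but without uninjured array 3, the array with the lowest sarcomere mean, 6 were lower. With the muscle covariate 4 were higher and 2 lower. That covariate is the mean of these same 63 genes, so these counts are no separate evidence on them. Of 22 myogenic regulators and satellite cell markers, 4 were higher, 18 not called and 0 lower by limma (0 lower at an unadjusted p under 0.05), with a median of 0.23. Over all genes, 7.67% were higher. The transcription factors MEF2A, MEF2C and MEF2D, which act with the myogenic factors, had Log2-fold changes of -0.33, -0.01 and -0.23 and were not called. MYOG, which drives the differentiation of myoblasts, was 6.89, 6.28 and 6.10 in wounds and 4.60, 4.49 and 4.39 in uninjured skin, 3.81-fold higher (adjusted p = 0.00225). MYF5, a determination factor of the muscle lineage, was 6.08, 5.90 and 6.19 in wounds and 5.14, 4.99 and 4.37 in uninjured skin, 2.33-fold higher (adjusted p = 0.00683). Neither gene overlapped between the groups, as was so for 35.5% of all genes. MYOG in uninjured skin lay close to the lower quartile, so its fold depends on background. Both calls held with the sarcomere mean as a covariate, while that of MYF5 was lost with the epidermal one. ANKRD1, a stress-responsive muscle protein, was 10.99, 10.68 and 10.83 in wounds and 8.16, 9.07 and 5.55 in uninjured skin (3.24, adjusted p = 0.0430), a call lost without uninjured array 1 or 3, 14 dpi array 1 or 3 or any 1 array of 21 dpi, in the fit of only the 6 arrays and with the epidermal covariate. The 4 became 2 without uninjured array 1 or 21 dpi array 3, and 1 with the epidermal covariate.

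In each signalling list a minority of genes was called, beside 7.67% of all genes higher and 7.26% lower. Of 44 genes of TGF-beta and BMP signalling 8 were higher, above the share of all genes, and 1 lower, with a median of 0.07. The receptor TGFBR1 rose by 0.93 and the ligand TGFB2 by 0.60 (adjusted p = 0.00546 and 0.0116). TGFB2 was dim, at 4.31, 4.48 and 4.02 in wounds and 3.78, 3.66 and 3.56 in uninjured skin, so its change depends on background. Its other probe, dimmer still, rose by 0.76. ID2, a target of BMP signals that blocks differentiation factors, was 7.84, 7.67 and 7.74 in wounds and 9.37, 8.92 and 9.61 in uninjured skin (-1.55, adjusted p = 0.00472). The matrix genes ASPN, FSTL1, TGFBI and BMP1 account for 4 of the 8, and 5 were higher with the epidermal covariate. Of 39 Wnt genes 4 were higher and 0 lower by limma (1 lower at an unadjusted p under 0.05). SFRP4, a secreted Wnt antagonist, was 7.52, 7.12 and 7.19 in wounds and 5.47, 5.47 and 5.10 in uninjured skin (1.94, adjusted p = 0.000604). The 4 became 2 without uninjured array 2 or 3 or 21 dpi array 1, and 7 without 14 dpi array 2. Of 35 Notch, Hedgehog and retinoid genes 3 were higher, the Notch ligand JAG1 (1.10, adjusted p = 0.00218) and CRABP1 included, and 0 were lower by limma (1 lower at an unadjusted p under 0.05), with 1 lower without 2 dpi array 1. Of 44 genes of FGF, EGF, PDGF and IGF signalling 2 were higher and 4 lower, FGFBP1 and EGFR among the lower. The 2 higher became 0 when uninjured array 1 or 2 or 21 dpi array 1 or 3 was left out and with the epidermal covariate, and 1 without uninjured array 3 or 21 dpi array 2. The 4 lower became 2 without 21 dpi array 3.

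Among 42 regulators of stem cells and limb regeneration, 4 were higher and 4 lower, with a median of 0.03. These counts are near the shares over all genes, 7.67% higher and 7.26% lower. SALL4, a zinc finger factor of embryonic and progenitor cells, was 6.22, 5.34 and 6.01 in wounds and 4.21, 4.19 and 4.19 in uninjured skin, a change of 1.66 with a standard error of 0.31 (adjusted p = 0.00776), or 3.16-fold. All wound arrays were above all uninjured arrays, which lay just above the lower quartile, so the fold depends on background. The second SALL4 probe gave 0.07 (adjusted p = 0.795), and the call was lost with the epidermal covariate. MYCN, a growth-promoting factor, was 7.19, 7.06 and 6.79 in wounds and 5.65, 5.55 and 4.74 in uninjured skin (1.70, adjusted p = 0.00992). HOXA13, a factor of the distal limb, was 7.84, 4.64 and 6.44 in wounds and 3.20, 3.19 and 3.07 in uninjured skin (3.16, adjusted p = 0.0156). Its wound arrays were far apart and the call was lost without uninjured array 2 or 21 dpi array 3. HMGA1 and HMGA2, chromatin proteins of proliferating and embryonic cells, were lower, HMGA1 at 5.74, 5.93 and 5.61 in wounds and 7.25, 6.71 and 6.92 in uninjured skin (-1.20, adjusted p = 0.00162) and HMGA2 by -1.12 (adjusted p = 0.00978). The 4 lower became 2 without uninjured array 2 or 21 dpi array 3. With the epidermal covariate 2 were higher and 1 lower, and HOXA13 and HMGA2 were not called.

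Few probes were called between wounds at 21 and 14 dpi, and many between wounds at 21 and 2 dpi. In the comparison of 21 with 14 dpi, 34 of 20035 probes were called, which is 0.170%, with 20 higher and 14 lower. Without uninjured array 2 or 3, 2 dpi array 2, or 21 dpi array 1, 2 or 3 the count was 5, 53, 21, 2, 6 and 1. It was 0 by limma without 14 dpi array 1 or 3 (2041 probes had an unadjusted p under 0.05 with all arrays) and 471 without 14 dpi array 2. That array stood apart from 14 dpi arrays 1 and 3. Its epidermal marker mean was 7.83 beside 8.48 and 8.41, and its sarcomere mean 7.60 beside 6.31 and 6.08. With array weights 2632 probes were called. The small count therefore does not show that wounds at 14 and 21 dpi were alike, and why it moved was not tested. The 14 named genes among the 34 calls were looked at after their values were seen. CRABP1 was 7.27, 6.72 and 6.90 at 21 dpi and 5.43, 5.64 and 4.64 at 14 dpi, a difference of 1.73 (adjusted p = 0.0410). CDH13, a cadherin of vessels and nerves, was 6.97, 6.09 and 6.30 at 21 dpi and 4.43, 4.71 and 3.98 at 14 dpi (2.07, adjusted p = 0.0232), and C1QTNF6 was higher at 21 dpi by 1.56 (adjusted p = 0.0199). Both genes rose against uninjured skin at 21 dpi, CDH13 by 1.30 and C1QTNF6 by 1.82 (CDH13 not with the epidermal covariate), and were not called at 14 dpi (-0.77 and 0.26, adjusted p = 0.102 and 0.450). EMILIN1, ANGPTL1, PMCH and SLITRK2 were also higher at 21 than at 14 dpi, by 0.91, 1.17, 1.16 and 0.87. ANGPTL1, PMCH and SLITRK2 averaged 3.74, 3.72 and 4.04 at 14 dpi and 4.91, 4.88 and 4.91 at 21 dpi. The 14 dpi levels of these genes were dim, so their differences depend on background. CUBN, an endocytic receptor, was 8.09, 7.81 and 7.74 at 21 dpi and 9.20, 8.76 and 8.83 at 14 dpi, a difference of -1.05 (adjusted p = 0.0265), and was 8.52-fold above uninjured skin. MAL and ATP2A2, the calcium pump of the ER, were lower at 21 than at 14 dpi by 1.62 and 0.79 on the log2 scale.

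**Figure D5:**
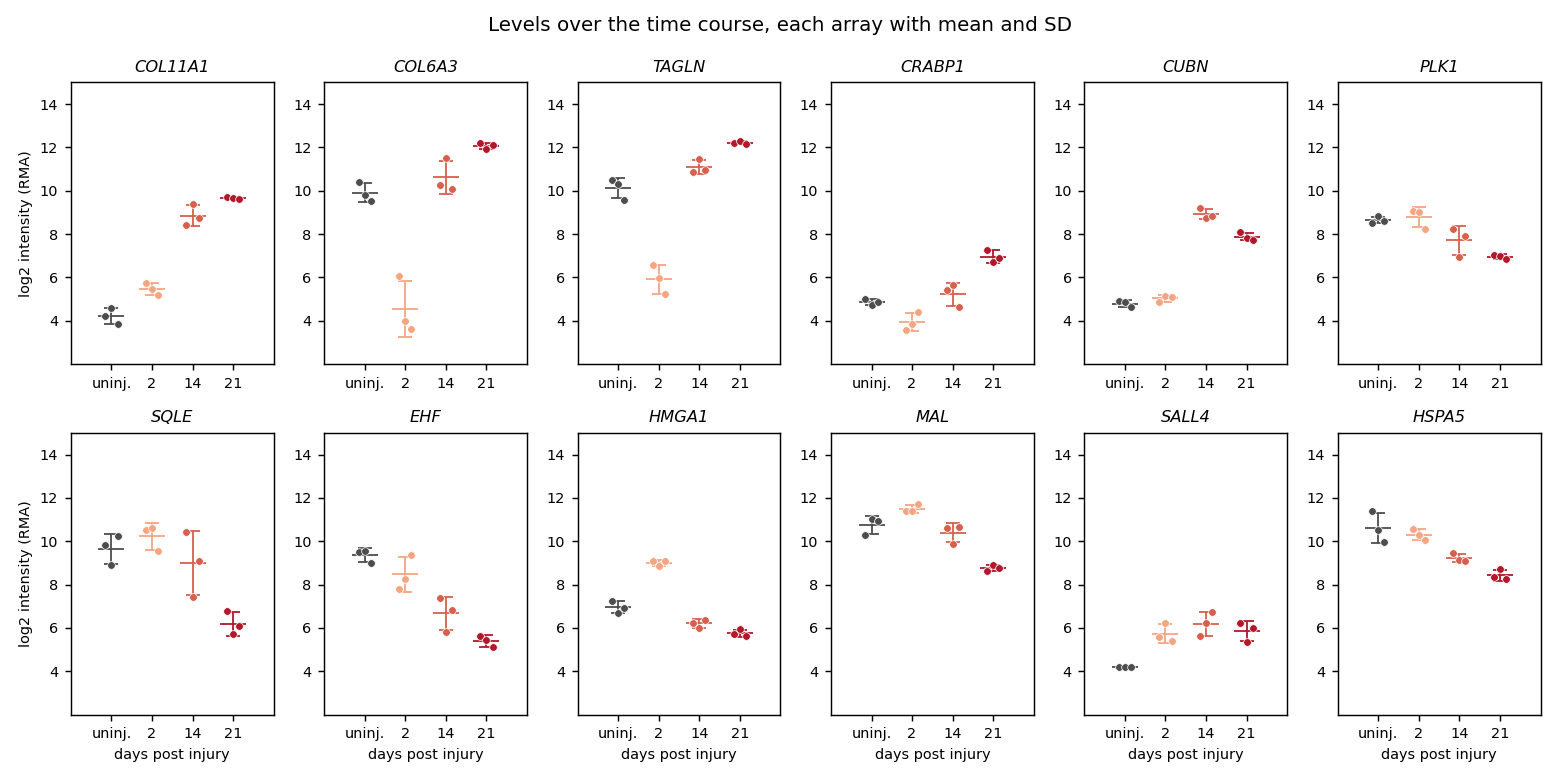
Log2 intensity of 12 genes in uninjured skin and in wounds of 2, 14 and 21 days (x axis), each array as a point, with the mean as a horizontal line and the SD as bars (n = 3 arrays per group). COL6A3 and TAGLN dip at 2 days and lie highest at 21 days, HMGA1 peaks at 2 days, and MAL is at 8.77 on average at 21 days against 10.39 at 14 days.

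Against wounds at 2 dpi, 4369 probes were called (21.8%), 1882 higher and 2487 lower at 21 dpi. The count was 2912 without 2 dpi array 2, 2773 and 2738 without 21 dpi arrays 1 and 3, 1076 with the muscle covariate and 514 with the epidermal covariate. Of the 60 matrix glycoproteins 41 were higher at 21 than at 2 dpi, and of the 75 mitosis genes 30 were lower. Of all 8639 genes with a symbol, 940 were higher and 1248 lower in this comparison. The 2 list counts were not recomputed with either covariate. Some genes that were higher at 21 dpi than in uninjured skin were lower than it at 2 dpi. COL6A3 had Log2-fold changes of 2.16 at 21 dpi and -5.37 at 2 dpi against uninjured skin, a difference of 7.54 between the wounds, OLFML2B of 2.93 and -2.67, and TAGLN of 2.10 and -4.20. HMGA1 and HMGA2 showed the opposite, with -1.20 and -1.12 at 21 dpi and 2.07 and 1.83 at 2 dpi. For the cell cycle lists the medians against uninjured skin were -0.16 at 2 dpi, -0.53 at 14 dpi and -0.83 at 21 dpi for mitosis, and -0.57, -0.55 and -0.69 for replication. For ER folding they were 0.05, -0.03 and -0.24. These medians share the uninjured arrays and are given side by side without a test.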

How the data were processed

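RNA of axolotl skin was measured on 12 Affymetrix Amby002 arrays. The authors deposited log2 values per probe set, which they made with robust multi-array average (RMA), a method that corrects background, normalises across arrays and combines the probes of a set. The paper names R/Bioconductor and the labels Affymetrix Expression Console, with versions not given in the sources used here, and values before RMA were not used here. Of 20080 probe sets, 45 controls were left out and 20035 tested with limma 3.58.1 under R 4.3.3, with a mean for each of the 4 groups and moderated variances (8 residual and 2.43 prior degrees of freedom). Two-sided p-values were adjusted over all tested probe sets of each comparison (Benjamini-Hochberg, threshold 0.05). An exact permutation test of 3 against 3 arrays cannot give a p below 0.1. No filter on low signal was applied. Platform annotation gave 10951 probe sets a symbol and 9084 none, for 8639 genes, each represented by its probe set with the highest mean over the 12 arrays.

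Named genes were the 15 largest rises and 15 largest falls without overlap and with the call kept without each of the 6 arrays, the 5 members with the smallest adjusted p in each of 38 lists, the collagens, the genes the paper names and cell type markers. Only some of these are described, picked with their values in view. The members and lists were chosen with earlier results of these data known, so no list is independent support. The fit was tested on simulated data. The description label of the 14 dpi arrays gives 7 days, whereas the titles and the paper give 14 days, which was used. Array number limits precision, as arrays give no counting depth.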

Additional observations from a re-analysis of the deposited data

Results flagged for a closer look

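The response at 21 dpi differed from that at 14 dpi in 34 probes and from that at 2 dpi in 4369 probes, by the direct comparison of the wounds in limma. Without 14 dpi array 1 or 3 the 34 became 0 (2041 probes had an unadjusted p under 0.05 with all arrays). It became 471 without 14 dpi array 2, so the calls against 14 dpi depended on single arrays. With the epidermal covariate the 4369 became 514. Among the genes described above, the differences of 21 minus 14 dpi were 0.91 for EMILIN1, -1.05 for CUBN, 1.73 for CRABP1, -1.62 for MAL, 2.07 for CDH13, 1.56 for C1QTNF6, -0.79 for ATP2A2, 1.17 for ANGPTL1, 1.16 for PMCH and 0.87 for SLITRK2 on the log2 scale.

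Some genes were called in opposite directions against uninjured skin at 21 and at 2 dpi. For matrix, fibroblast and contractile genes that were higher at 21 dpi and lower at 2 dpi, the differences of 21 minus 2 dpi were 3.84 for COL5A1, 5.71 for COL6A1, 7.54 for COL6A3, 4.53 for COL12A1, 2.18 for BMP1, 1.99 for EMILIN1, 3.33 for THBS3, 3.90 for THBS2, 5.60 for OLFML2B, 3.58 for HSPG2, 2.71 for FSTL1, 1.70 for TCF4 and 6.30 for TAGLN. They were 3.75 for DST, 2.28 for FKBP9, 2.99 for FABP3 and 2.67 for CDH13. Genes lower at 21 dpi and higher at 2 dpi had differences of -1.42 for EGFR, -3.26 for HMGA1, -2.95 for HMGA2 and -1.46 for PFKP. Some of these opposite calls are weak. At 21 dpi those of COL6A1, COL6A3, COL12A1 and FABP3 depended on single arrays, as given above. With the epidermal covariate these genes were not called at 21 dpi, and neither were BMP1, DST, EGFR, HMGA2, PFKP and CDH13. At 2 dpi COL5A1, EMILIN1 and FABP3 were close to the threshold (adjusted p = 0.0408, 0.0434 and 0.0492 by limma). EMILIN1 was also dim, at 3.71 on average at 2 dpi and 4.17 in uninjured skin, so its fall depends on background. Calls of single genes at 2 dpi were not recomputed with arrays left out.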

How the results depend on the processing

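Of 85 recomputed counts with all arrays kept, 61 stayed within 1.5 times of the reported count. Those below did not, and where no other reason is given the cause was not tested. Array weights gave 6703 probes at 21 dpi (3211 higher, 3492 lower), 2632 against 14 dpi, 7593 against 2 dpi and 503 members of the lists, in place of 279. An adjusted p under 0.01 gave 872 (491 higher, 381 lower, 491 of at least 2-fold), 0 against 14 dpi by limma (2041 at an unadjusted p under 0.05), 2048 against 2 dpi and 134 list members. The epidermal covariate gave 959 (579 higher, 380 lower, 474 of at least 2-fold), 514 against 2 dpi and 125 list members. The muscle covariate gave 11 against 14 dpi and 1076 against 2 dpi. Against 14 dpi, a filter at the median signal gave 13 and the fit of the groups compared 0.

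Leaving out 1 array gave 1151 to 2948 probes changed, 654 to 1472 higher, 497 to 1476 lower, 572 to 974 of at least 2-fold, 0 to 471 against 14 dpi, 2738 to 4781 against 2 dpi and 159 to 316 list members. As a paired fit, the replicate block gave 2043 probes at 21 dpi and 0 against 14 dpi. Deviations of wound and uninjured arrays of the same number correlated by -0.082, -0.12 and -0.0044 across probes. For unlike numbers the values ran from -0.022 to 0.12. With 3 arrays per group these values cannot decide if the numbers mark pairs. The numbers were not taken as pairs, because no source ties them to particular animals. Of the genes described, COL12A1, ANKRD1 and TAL1 were not called with the block.

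Reversed with the epidermal covariate were TP63 (0.44) and EPCAM (0.02), neither of them called and both part of the mean behind that covariate. With the mean of all probe sets of a gene 294 list members were called.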
